A study of Mus musculus with 24 samples.

Results

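The genes described here are 10 genes of inflammasomes and of lytic and receptor-driven cell death: Nlrp3, Aim2, Pycard, Casp1, Casp4, Gsdmd, Casp8, Ripk3, Mlkl and Fas. They were chosen by symbol from the 35770 gene names that the authors deposited in TPM, a relative unit for transcripts that corrects for their length. All 10 were listed, and all 10 passed the filter of TPM above 1 in at least 3 libraries, as did 13661 genes in all. RNA was measured in 24 libraries of bone marrow-derived macrophages (BMDMs) from C57BL/6 mice, grown with M-CSF at 20 ng/mL. The BMDMs received control media or media conditioned (CM) by LL2 cells, a mouse lung carcinoma line, that were WT, KEAP1 KO or NRF2 KO, each with vehicle or with CDDO-Me at 100 nM, a synthetic oleanane triterpenoid that activates NRF2. Each of the 8 groups held 3 libraries. The CM had been on the cancer cells for 48 h, made up 75% of the medium and was left on the BMDMs for 24 h, with the drug or vehicle added for the same time.

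KEAP1 and NRF2 were knocked out in the cancer cells that made the CM and not in the BMDMs, so that all BMDMs were unedited. The labels speak of 3 independent samples in a group and of a progenitor suspension divided over wells. Whether the samples came from separate mice is not given, so the p-values measure the spread between these samples, which may be technical.

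Inflammasomes are assemblies in the cytosol of macrophages. A sensor, such as NLRP3 or AIM2, recruits the adaptor ASC (the product of Pycard), which gathers and activates caspase-1, while caspase-11 (the product of mouse Casp4) senses lipopolysaccharide directly. Both caspases cut gasdermin D, whose released part forms pores in the plasma membrane, and this lytic death is known as pyroptosis. Necroptosis is a second lytic death, in which RIPK3 phosphorylates MLKL. Caspase-8 acts below death receptors such as FAS, where it starts apoptosis and restrains necroptosis. These proteins are activated mainly by assembly, cleavage and phosphorylation, which RNA levels do not measure.

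The authors' build is GRCm39. On it, Casp1 (chr9:5298508-5307290) and Casp4 (chr9:5308828-5336783) are neighbours, Mlkl lies at chr8:112036296-112065168 and Fas at chr19:34268001-34305173. Promoter sequences were taken from RefSeq on an earlier build, GRCm38.p6, as the 250 bases before a gene's start. Windows were found for 9 of the 10 genes, 11 windows in all, since Nlrp3 and Casp4 had 2 starts each. No window was matched to Gsdmd. The windows shown are those of Mlkl and Casp4, which had the largest and the next largest difference with CDDO-Me in KEAP1 KO CM, and that of Fas. In the main fit, without a replicate block, Fas was the single gene of the 10 that was higher with CDDO-Me in all 4 media. With the replicate number as a block, Ripk3 and Mlkl were higher in all 4 as well. In WT CM and KEAP1 KO CM, however, the numbers did not meet the rule for pairs given under processing (lowest r 0.0622 and 0.0941). The share of all genes higher in all 4 with the block is not given here.
Mlkl (chr8:111338206-111338455, - strand): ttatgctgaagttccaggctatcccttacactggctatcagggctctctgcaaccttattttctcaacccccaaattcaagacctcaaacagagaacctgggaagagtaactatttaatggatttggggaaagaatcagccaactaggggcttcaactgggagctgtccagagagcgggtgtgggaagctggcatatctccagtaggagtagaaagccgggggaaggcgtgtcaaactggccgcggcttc
Casp4 (chr9:5308599-5308848, + strand): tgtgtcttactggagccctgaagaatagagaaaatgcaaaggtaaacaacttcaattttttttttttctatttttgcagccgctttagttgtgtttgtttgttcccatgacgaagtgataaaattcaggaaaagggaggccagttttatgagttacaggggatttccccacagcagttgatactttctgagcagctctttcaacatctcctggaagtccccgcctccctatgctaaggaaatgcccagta
Fas (chr19:34290409-34290658, + strand): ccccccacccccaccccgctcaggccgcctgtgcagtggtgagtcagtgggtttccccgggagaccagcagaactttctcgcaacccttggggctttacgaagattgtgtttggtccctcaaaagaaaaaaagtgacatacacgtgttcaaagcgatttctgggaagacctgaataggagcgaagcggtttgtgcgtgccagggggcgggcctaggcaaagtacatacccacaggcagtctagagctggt

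Both strands of these windows were searched for 3 motifs, overlaps allowed: an interferon-stimulated response element (GAAA again after 2 bases), a kappaB site (GGGA and TTCC 2 bases apart) and TGACNNNGC (an antioxidant response element, bound by NRF2). None of the 11 windows held a match, so the sequences above carry no capitals. Of all 32817 windows of the same length in the table, 2.97% held the response element, 1.21% the kappaB site and 10.2% TGACNNNGC. The absence of these letters says nothing about the factors, and other spellings of these motifs were not searched.

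All 24 libraries had the 8 macrophage markers that were checked, among them Adgre1, Csf1r and Lyz2, above 1 TPM. Of the markers of other cells, 7 of 8 fibroblast markers were above 1 TPM in all 24 libraries, with a summed level of 166 to 2130 TPM, as were 2 of 8 neutrophil markers, S100a8 and S100a9, and 1 of 8 T and NK cell markers, Cd4. The neutrophil markers Ly6g and Mpo, 6 of the T and NK cell markers, Cd3e among them, and 3 of 4 B cell markers were under 1 TPM throughout. Of 10 known NRF2 target genes, all 10 were higher with CDDO-Me in media and in NRF2 KO CM, 8 in WT CM and 9 in KEAP1 KO CM. Replicate 3 of NRF2 KO CM stood apart under both treatments. These libraries had the fewest genes above 0, 15702 with vehicle and 16299 with CDDO-Me, against up to 18993 elsewhere. Their lowest correlations with libraries of their own group were 0.903 and 0.939, while all other groups had 0.978 or more. In the vehicle library, genes with a transcript of up to 1000 bases were at a median log2 difference of -0.45 from the other 2 replicates and those over 8000 bases at 0.06. Values from a fit of 22 libraries, without replicate 3 of NRF2 KO CM in both treatments, are therefore given beside the results for NRF2 KO CM and wherever that fit changed a call of the 10 genes. TPM keep no count of reads, so depth is unknown for all values given.

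**Figure D1:**
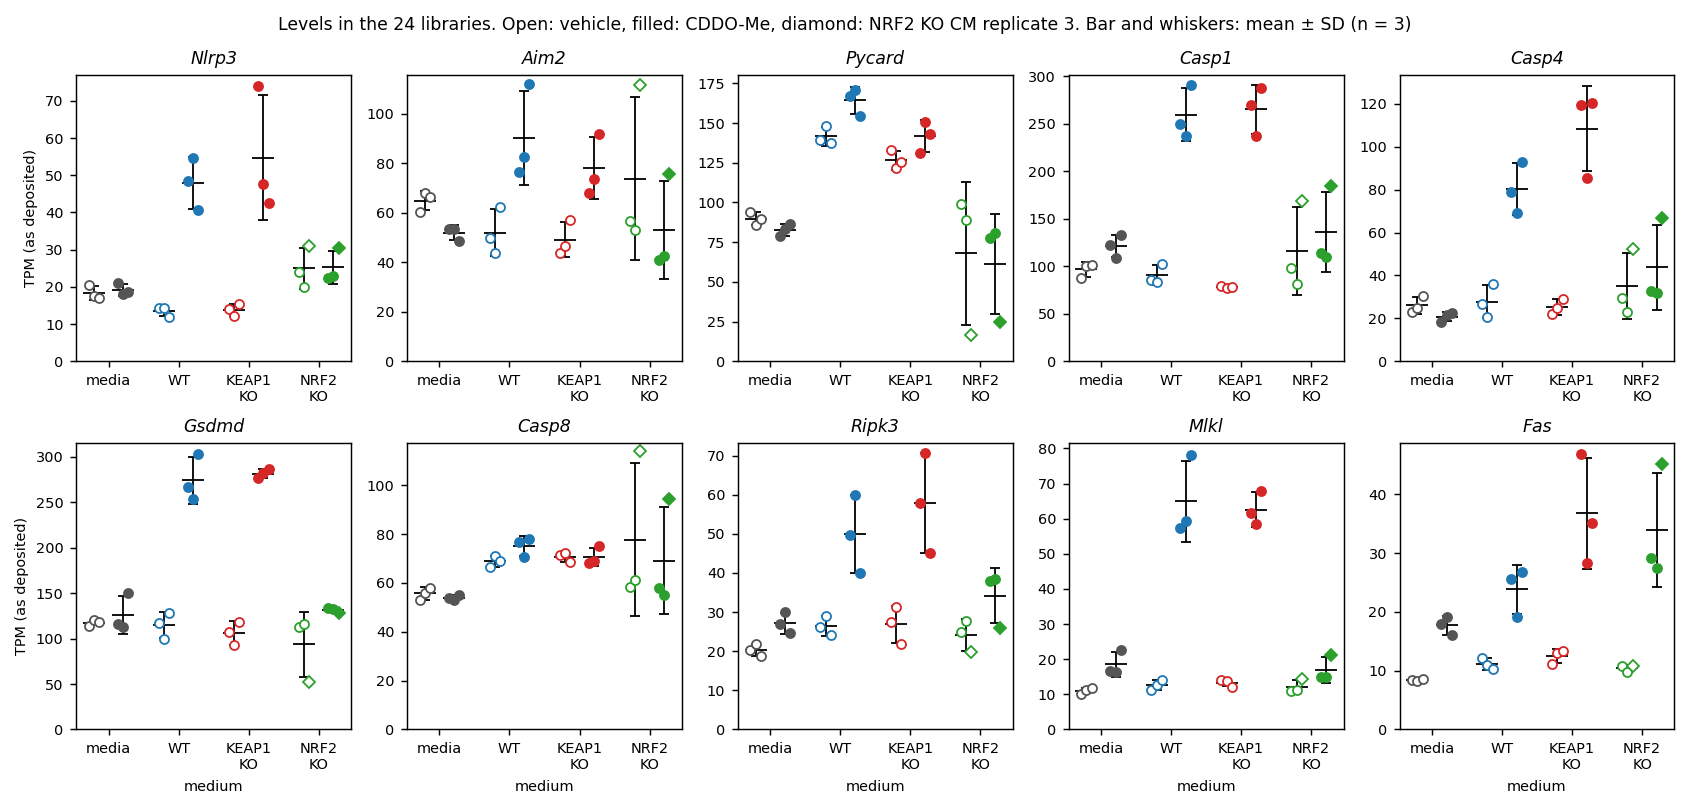
TPM as deposited (linear y axis from 0) of the 10 genes in each of 24 libraries, by medium (x axis), with vehicle as open and CDDO-Me as filled symbols, diamonds for NRF2 KO CM replicate 3, and a bar with whiskers for mean ± SD (n = 3). Mlkl, Casp1, Casp4, Gsdmd and Nlrp3 were high in the 6 libraries that had both a CM from WT or KEAP1 KO cells and CDDO-Me, and the diamonds lie far from their group for Pycard.

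With CDDO-Me, 8 of the 10 genes rose in BMDMs with WT CM and the same 8 rose with KEAP1 KO CM: Nlrp3, Aim2, Casp1, Casp4, Gsdmd, Ripk3, Mlkl and Fas. None fell. In media without CM the drug raised 2, Mlkl and Fas, and in NRF2 KO CM it raised 2, Ripk3 and Fas. The median log2 difference over the 10 genes was 0.10 in media, 1.27 in WT CM, 1.60 in KEAP1 KO CM and 0.32 in NRF2 KO CM, while the median over all genes tested was within 0.02 of 0 in each. A gene was called at an adjusted p under 0.05 in limma, with 24 libraries in 1 fit on log2(scaled TPM + 1), two-sided and adjusted by the Benjamini-Hochberg method over 13661 genes. By this rule 3.23% of all genes tested were higher with CDDO-Me in media, 14.5% in WT CM, 14.5% in KEAP1 KO CM and 4.87% in NRF2 KO CM. Higher in both WT CM and KEAP1 KO CM were 12.4% of genes, and in all 4 media 1.39%. Fold changes on this scale understate the change of genes near 1 TPM. The share of all genes without overlap between drug and vehicle libraries is not given here. Overlap or its absence between these libraries, given below for single genes, is therefore a description only. In bulk RNA, a change in RNA per cell and a change in which cells are present cannot be told apart.

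Of the sensors, Nlrp3 (chr11:59432394-59457782), which responds to potassium efflux and many other disturbances, was at 14.4, 14.3 and 11.99 TPM with WT CM/vehicle and at 48.5, 54.6 and 40.7 TPM with WT CM/CDDO-Me, in replicates 1 to 3 in order as in all values below. With KEAP1 KO CM it was at 14.02, 12.1 and 15.3 TPM with vehicle and at 73.99, 47.7 and 42.5 TPM with CDDO-Me. In both CM all drug libraries lay above all vehicle libraries, although the 3 KEAP1 KO CM/CDDO-Me libraries differed among themselves more than any other group. The log2 difference was 1.88 ± 0.21 (SE, adjusted p = 5.69e-07) in WT CM and 2.04 ± 0.21 (SE, adjusted p = 1.88e-07) in KEAP1 KO CM. In media, Nlrp3 was at 20.6, 17.6 and 16.9 TPM with vehicle and 21.1, 18.02 and 18.6 TPM with CDDO-Me. With NRF2 KO CM it was at 24.1, 19.9 and 30.9 TPM and 22.3, 22.9 and 30.4 TPM. The vehicle and drug libraries overlapped in both, with log2 differences of 0.08 ± 0.21 (SE, adjusted p = 0.979) and 0.06 ± 0.21 (SE, adjusted p = 0.925), the second being 0.08 (adjusted p = 0.889) without replicate 3.

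Aim2 (chr1:173178445-173293930), the sensor of DNA in the cytosol, had a smaller difference. It was at 49.7, 43.6 and 62.3 TPM with WT CM/vehicle and at 76.5, 82.4 and 112 TPM with WT CM/CDDO-Me. With KEAP1 KO CM it was at 43.6, 46.6 and 57.1 TPM and 68.03, 73.7 and 91.95 TPM. The drug libraries were above the vehicle libraries in both CM, by a log2 difference of 0.91 ± 0.28 (SE, adjusted p = 0.0195) and 0.82 ± 0.28 (SE, adjusted p = 0.0348). Each of these calls was lost when any of 3 libraries was left out, replicate 1 or 2 of the vehicle group or replicate 3 of the drug group of that CM, with adjusted p up to 0.107 in WT CM and 0.155 in KEAP1 KO CM. Without CM Aim2 was at 60.5, 67.8 and 66.4 TPM with vehicle and at 53.6, 53.6 and 48.4 TPM with the drug, all drug libraries below all vehicle libraries, but the difference of -0.30 ± 0.28 (SE, adjusted p = 0.782) did not pass. The values in NRF2 KO CM were 56.6, 53.2 and 112 TPM and 40.8, 42.4 and 75.8 TPM, with replicate 3 the highest of both groups and a difference of -0.41 ± 0.28 (SE, adjusted p = 0.469), or -0.35 (adjusted p = 0.344) in the fit of 22 libraries.

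Pycard (chr7:127588558-127593039), the adaptor, did not pass for the drug in any medium. It was at 139, 148 and 137 TPM with WT CM/vehicle and 167, 171 and 155 TPM with WT CM/CDDO-Me. The corresponding values in KEAP1 KO CM were 133, 121 and 125 TPM and 131, 151 and 143 TPM. The log2 differences were 0.34 ± 0.43 (SE, adjusted p = 0.647), with no overlap between the libraries, and 0.33 ± 0.43 (SE, adjusted p = 0.644), with overlap. In media Pycard was at 93.9, 85.7 and 89.6 TPM and 79.00, 83.1 and 86.5 TPM, a difference of -0.09 ± 0.43 (SE, adjusted p = 0.992). In NRF2 KO CM it was at 98.9, 88.7 and 16.4 TPM and 77.8, 80.99 and 24.6 TPM, so that replicate 3 was at less than any other library of the 24 under both treatments, and the difference was 0.06 ± 0.43 (SE, adjusted p = 0.965). The SE of Pycard was the largest of the 10 genes, and it was smaller when replicate 3 of NRF2 KO CM was left out of both treatments. In that fit of 22 libraries the drug difference was 0.33 in WT CM (adjusted p = 0.00106) and 0.32 in KEAP1 KO CM (adjusted p = 0.00136), both past the threshold, which 21.3% of genes passed as higher in each of these CM. In NRF2 KO CM it was -0.20 (adjusted p = 0.2).

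Of the inflammatory caspases, Casp1, which matures interleukin-1beta and interleukin-18, was at 86.00, 83.6 and 102 TPM with WT CM/vehicle and at 250.2, 237 and 291 TPM with WT CM/CDDO-Me. With KEAP1 KO CM it was at 79.3, 76.8 and 78.04 TPM with vehicle and 269.8, 237 and 288 TPM with the drug. Over both CM the lowest drug library was at 237 TPM and the highest vehicle library at 102 TPM, and the log2 difference was 1.64 ± 0.25 (SE, adjusted p = 3.28e-05) in WT CM and 1.92 ± 0.25 (SE, adjusted p = 4.92e-06) in KEAP1 KO CM. In media Casp1 was at 87.7, 101 and 101 TPM with vehicle and 123, 109 and 133 TPM with the drug. These libraries did not overlap either, but the difference was 0.34 ± 0.25 (SE, adjusted p = 0.635). The NRF2 KO CM libraries were at 97.7, 81.3 and 169 TPM and 114, 109.8 and 185 TPM, with replicate 3 the highest of each group and a difference of 0.29 ± 0.25 (SE, adjusted p = 0.592), or 0.36 (adjusted p = 0.203) without replicate 3.

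Casp4 was at 26.8, 20.6 and 35.8 TPM with WT CM/vehicle and at 79.03, 69.1 and 92.8 TPM with WT CM/CDDO-Me. In KEAP1 KO CM it was at 21.8, 24.9 and 29.02 TPM and 119, 85.4 and 120.3 TPM. The drug libraries were again above all vehicle libraries of the same CM, by 1.66 ± 0.32 (SE, adjusted p = 0.000448) and 2.22 ± 0.32 (SE, adjusted p = 1.77e-05) on the log2 scale. In media the direction was the opposite, at 23.1, 24.6 and 30.4 TPM with vehicle and 18.4, 21.6 and 22.5 TPM with the drug and without overlap, but the difference of -0.28 ± 0.32 (SE, adjusted p = 0.85) did not pass. With NRF2 KO CM the values were 29.3, 23.1 and 52.3 TPM and 32.9, 31.7 and 66.8 TPM, with overlap and a difference of 0.35 ± 0.32 (SE, adjusted p = 0.62), or 0.34 (adjusted p = 0.517) without replicate 3. The Casp4 window printed above and its second window, 11 bases on, held none of the 3 motifs in the letters searched. Both held ggggatttcc, which the kappaB letters searched (GGGA and TTCC 2 bases apart) did not cover.

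Gsdmd (chr15:75733974-75739257), which encodes the pore-forming protein, was at 117, 99.3 and 128 TPM with WT CM/vehicle and at 266, 253 and 303 TPM with WT CM/CDDO-Me. In KEAP1 KO CM it was at 107, 92.97 and 119 TPM and 276, 282 and 286 TPM. All 6 drug libraries were at 253 TPM or more and all 6 vehicle libraries at 128 TPM or less. The log2 difference was 1.39 ± 0.20 (SE, adjusted p = 1.96e-05) in WT CM and 1.57 ± 0.20 (SE, adjusted p = 4.13e-06) in KEAP1 KO CM. In media Gsdmd was at 114, 120.5 and 118 TPM and 116, 113 and 149.98 TPM, a difference of 0.11 ± 0.20 (SE, adjusted p = 0.951). Gsdmd in NRF2 KO CM was at 113, 116 and 52.7 TPM and 133, 132 and 129 TPM. There the vehicle library of replicate 3 was the lowest of the 24, and the difference was 0.60 ± 0.20 (SE, adjusted p = 0.0691) with it and 0.25 (adjusted p = 0.436) without replicate 3 of both treatments. It passed without replicate 1 of the vehicle group (adjusted p = 0.0276) or without replicate 2 (adjusted p = 0.0329).

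Casp8 (chr1:58834375-58886665), the caspase between the death receptors and either apoptosis or necroptosis, did not pass for the drug in any medium. With WT CM it was at 66.4, 70.8 and 69.1 TPM with vehicle and 76.9, 70.5 and 77.8 TPM with CDDO-Me. With KEAP1 KO CM it was at 71.2, 72.4 and 68.4 TPM and 68.1, 68.8 and 74.97 TPM. The libraries overlapped in both CM, and the differences were 0.25 (adjusted p = 0.489) and 0.17 (adjusted p = 0.665), with 95% intervals of -0.22 to 0.73 and -0.31 to 0.64. In the fit of 22 libraries the difference in WT CM passed, at 0.24 (adjusted p = 0.012). In media Casp8 was at 53.03, 56.00 and 58.1 TPM and 53.9, 53.2 and 54.9 TPM. With NRF2 KO CM it was at 58.2, 61.01 and 114 TPM and 57.8, 54.98 and 94.3 TPM, with replicate 3 the highest of both groups and a difference of -0.11 (adjusted p = 0.857), or -0.04 (adjusted p = 0.873) without replicate 3.

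Of the necroptosis genes, Ripk3 (chr14:56022452-56026324), which encodes the kinase, was at 26.1, 29.1 and 24.1 TPM with WT CM/vehicle and at 49.8, 60.01 and 40.03 TPM with WT CM/CDDO-Me. In KEAP1 KO CM it was at 27.4, 31.3 and 21.9 TPM and 57.9, 70.7 and 45.2 TPM. No vehicle library reached a drug library of the same CM. The differences were 1.01 ± 0.15 (SE, adjusted p = 2.54e-05) and 1.24 ± 0.15 (SE, adjusted p = 1.96e-06). In media Ripk3 was at 20.4, 21.8 and 18.8 TPM and 26.9, 29.9 and 24.6 TPM, again without overlap. The difference there was 0.41 ± 0.15 (SE, adjusted p = 0.128), and it passed with the replicate number as a block (adjusted p = 0.00267), where 5.75% of genes were higher. In NRF2 KO CM it was at 24.9, 27.7 and 19.8 TPM and 38.1, 38.5 and 26.03 TPM, with overlap through replicate 3 of the drug group. This difference of 0.51 ± 0.15 (SE, adjusted p = 0.0357) passed, but it was lost without replicate 1 or 3 of the vehicle group or replicate 1 or 2 of the drug group, with adjusted p from 0.058 to 0.142. Without replicate 3 of both NRF2 KO CM treatments it was 0.56 (adjusted p = 0.0329), where 4.85% of genes were higher, and that fit also let the difference in media pass, at 0.43 (adjusted p = 0.0357), where 7.51% were.

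Mlkl, the executor of necroptosis, had the largest log2 difference of the 10 genes with CDDO-Me in WT CM and in KEAP1 KO CM. It was at 11.3, 12.6 and 14.1 TPM with WT CM/vehicle and at 57.3, 59.4 and 78.2 TPM with WT CM/CDDO-Me. In KEAP1 KO CM it was at 14.1, 13.8 and 12.2 TPM and 61.5, 58.4 and 67.96 TPM. The lowest of these drug libraries was at 57.3 TPM and the highest vehicle library at 14.1 TPM, and the differences were 2.39 ± 0.19 (SE, adjusted p = 6.16e-09) and 2.31 ± 0.19 (SE, adjusted p = 1.01e-08). In media Mlkl was at 10.2, 11.2 and 11.8 TPM with vehicle and 16.6, 16.4 and 22.7 TPM with the drug, without overlap. The difference of 0.70 ± 0.19 (SE, adjusted p = 0.0297) passed, but not without any 1 of the 3 media/vehicle libraries or replicate 3 of media/CDDO-Me (adjusted p from 0.0577 to 0.183). The NRF2 KO CM libraries were at 11.02, 11.3 and 14.3 TPM and 14.97, 14.9 and 21.3 TPM, also without overlap, with a difference of 0.47 ± 0.19 (SE, adjusted p = 0.142). That difference passed with the replicate number as a block (adjusted p = 0.0142), where 7.36% of genes were higher, and without replicate 3 of NRF2 KO CM/vehicle (adjusted p = 0.044). Without replicate 3 of NRF2 KO CM/CDDO-Me it was 0.26 (adjusted p = 0.365), and without replicate 3 of both treatments 0.42 (adjusted p = 0.17).

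Fas, the death receptor, was higher with the drug in all 4 media. It was at 8.37, 8.29 and 8.62 TPM with media/vehicle and at 17.9, 19.2 and 15.99 TPM with media/CDDO-Me. In WT CM it was at 12.2, 11.04 and 10.2 TPM and 25.6, 19.1 and 26.7 TPM. The differences were 1.00 ± 0.20 (SE, adjusted p = 0.0038) in media and 1.14 ± 0.20 (SE, adjusted p = 0.000183) in WT CM. In KEAP1 KO CM Fas was at 11.1, 13.1 and 13.3 TPM with vehicle and 46.8, 28.2 and 35.1 TPM with the drug. In NRF2 KO CM the values were 10.7, 9.80 and 10.8 TPM and 29.2, 27.5 and 45.1 TPM. The vehicle and drug libraries did not overlap in any medium, and the differences were 1.62 ± 0.20 (SE, adjusted p = 3.14e-06) in KEAP1 KO CM and 1.61 ± 0.20 (SE, adjusted p = 2.12e-05) in NRF2 KO CM. Without replicate 3 of both treatments the difference in NRF2 KO CM was 1.41 (adjusted p = 0.000106). Leaving out any single library changed no Fas call in these 4 comparisons. With the compared groups fitted alone, Fas passed in media, WT CM and KEAP1 KO CM, where 6.28%, 20.5% and 18.2% of all genes were higher. It did not pass in NRF2 KO CM in such a fit, where 0.825% were higher.

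**Figure D2:**
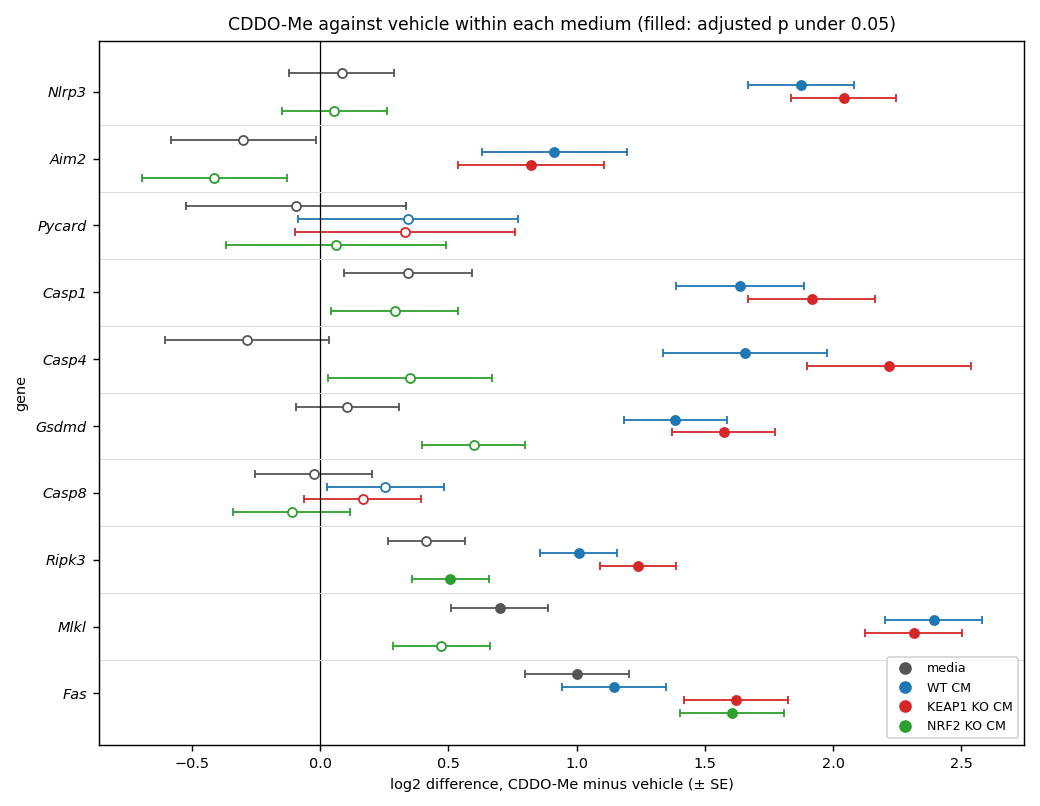
Log2 difference between CDDO-Me and vehicle (x axis, ± SE, 3 libraries against 3) for each of the 10 genes (y axis) in the 4 media, with filled points at an adjusted p under 0.05 in limma. The points of WT CM and KEAP1 KO CM lie apart from those of media and NRF2 KO CM for Nlrp3, Casp1 and Mlkl, and the points of Fas lie at 1.00 to 1.62 in all 4 media.

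A difference in the CDDO-Me effect between media was tested directly, as a difference of 2 log2 differences. Against media without CM, the effect in WT CM was larger for 6 of the 10 genes, where 8.59% of all genes tested had a larger effect. These were Nlrp3 at 1.79 ± 0.29 (SE, adjusted p = 0.000161), Casp4 at 1.94 ± 0.45 (SE, adjusted p = 0.00498), Mlkl at 1.69 ± 0.27 (SE, adjusted p = 0.000121), Casp1, Gsdmd and Aim2. The effect in KEAP1 KO CM was also larger for 6 genes, where 8.19% of all genes had a larger effect, with Ripk3 in place of Aim2. Casp4 had the largest of these values, 2.50 ± 0.45 (SE, adjusted p = 0.000521). Both comparisons use the same 6 libraries of media. The Aim2 value of 1.21 ± 0.40 (SE, adjusted p = 0.0469) for WT CM was lost when any 1 of 11 of the 12 libraries was left out, all but replicate 3 of WT CM/vehicle (adjusted p from 0.054 to 0.132). In the fit of 22 libraries 8 genes had a larger effect in WT CM than in media, where 14.3% of all genes had, with Aim2 at 1.19 (adjusted p = 0.00069), Pycard at 0.41 (adjusted p = 0.0048) and Ripk3 at 0.57 (adjusted p = 0.0277) among them. For KEAP1 KO CM there were 8 as well, where 14% of all genes had a larger effect, Aim2 at 1.10 (adjusted p = 0.0014) and Pycard at 0.40 (adjusted p = 0.00579) being those added. The Ripk3 value for WT CM was 0.59 ± 0.21 (SE, adjusted p = 0.0677), and it passed without replicate 3 of WT CM/CDDO-Me (adjusted p = 0.0278). For Fas the effects in WT CM and in media differed by 0.14, with a 95% interval of -0.46 to 0.75, and those in NRF2 KO CM and in media by 0.61, with an interval of 0.00 to 1.21 (adjusted p = 1.0).

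The effect was also larger in WT CM than in NRF2 KO CM for 4 genes, where 7.61% of all genes had a larger effect. They were Nlrp3 at 1.82 ± 0.29 (SE, adjusted p = 0.000135), Mlkl at 1.92 ± 0.27 (SE, adjusted p = 2.87e-05), Casp1 at 1.35 ± 0.35 (SE, adjusted p = 0.0124) and Aim2 at 1.33 ± 0.40 (SE, adjusted p = 0.0316). Casp4 and Gsdmd were at 1.31 (adjusted p = 0.0645) and 0.79 (adjusted p = 0.0789). Without replicate 3 of NRF2 KO CM these and Pycard passed as well, 7 genes in all, where 11.2% of all genes did. Of single libraries, leaving out replicate 3 of WT CM/vehicle, replicate 2 of NRF2 KO CM/vehicle or replicate 3 of NRF2 KO CM/CDDO-Me let Casp4 pass (adjusted p from 0.00643 to 0.0407), and leaving out replicate 3 of NRF2 KO CM/vehicle let Gsdmd pass (adjusted p = 0.000579). The Aim2 call was lost without replicate 1 or 2 of WT CM/vehicle, replicate 3 of WT CM/CDDO-Me or of NRF2 KO CM/vehicle, or replicate 1 or 2 of NRF2 KO CM/CDDO-Me, with adjusted p from 0.0634 to 0.0934. Between NRF2 KO CM and media none of the 10 effects differed by limma, and 1 of them, that of Fas, had an unadjusted p under 0.05. No gene of the 13661 passed that comparison.

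Between KEAP1 KO CM and WT CM the effect of CDDO-Me did not pass for any of the 10 genes, nor for any gene tested, and none of the 10 had an unadjusted p under 0.05. The 95% intervals of this difference were wide for some genes, -0.39 to 1.51 for Casp4 and -1.28 to 1.26 for Pycard, and narrower for others, -0.21 to 0.67 for Ripk3 and -0.64 to 0.48 for Mlkl. With CDDO-Me in both, KEAP1 KO CM and WT CM differed in 0 of the 10 genes and in 0.0439% of all genes tested, and 1 of the 10, Fas, had an unadjusted p under 0.05. Fas was higher in each of the 3 KEAP1 KO CM/CDDO-Me libraries than in the WT CM/CDDO-Me libraries, by 0.56 on the log2 scale (95% interval 0.14 to 0.99, adjusted p = 0.792). The libraries of the other genes overlapped, except those of Pycard, which were lower with KEAP1 KO CM, by a log2 difference of -0.24 (95% interval -1.14 to 0.66). The share of all genes without overlap in this comparison is not given here, so the lack of overlap for Fas and Pycard is a description only.

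**Figure D3:**
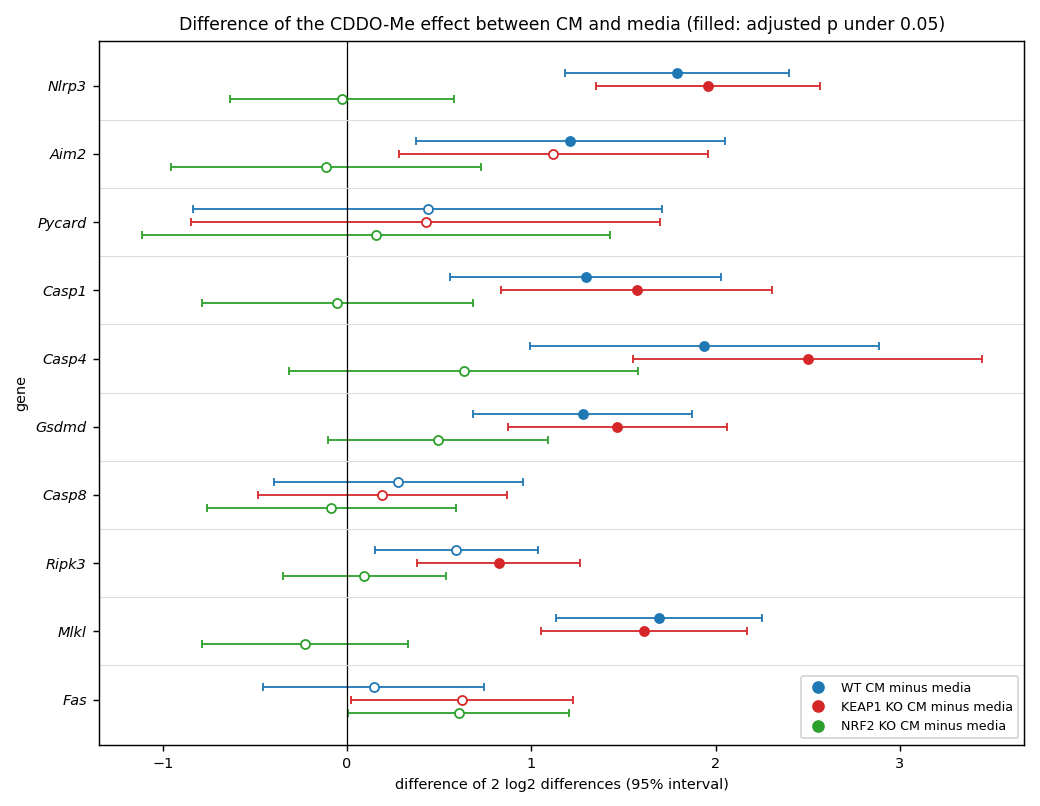
Difference between the log2 effect of CDDO-Me in each CM and that in media (x axis, with its 95% interval, 12 libraries in each comparison) for the 10 genes (y axis), with filled points at an adjusted p under 0.05 in limma. All filled points lie above 0 and belong to WT CM or KEAP1 KO CM, from 0.82 for Ripk3 to 2.50 for Casp4.

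The effect of the CM alone was compared in vehicle-treated BMDMs. By limma none of the 10 genes differed between WT CM and media, where 7.23% of all genes did, or between KEAP1 KO CM and media, where 8.06% did, and 2 of the 10 had an unadjusted p under 0.05 in each. Between NRF2 KO CM and media, none of the 10 differed, where 0.00732% of genes did, and none had an unadjusted p under 0.05. Between KEAP1 KO CM and WT CM none of the 10 and no gene tested differed, and again none of the 10 had an unadjusted p under 0.05. The 2 tumor CM comparisons share the media/vehicle libraries.

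Some of the genes had no overlap between the libraries of WT CM and media under vehicle, as 13.6% of all genes tested had in the higher and 21.5% in the lower direction. Pycard was at 142 ± 5.85 TPM (SD, n = 3) with WT CM and 89.7 ± 4.14 TPM with media, a log2 difference of 0.72 ± 0.43 (SE, adjusted p = 0.438). Casp8 differed by 0.37 ± 0.23 (SE, adjusted p = 0.462) and Ripk3 by 0.43 ± 0.15 (SE, adjusted p = 0.1), also higher in each WT CM library than in any media library. Fas was higher in each WT CM library as well (0.43), and Nlrp3 was lower in each (-0.34). Between KEAP1 KO CM and media 8 of the 10 genes had no overlap, where 19.8% of all genes had none in the higher and 16% in the lower direction. Pycard (0.49), Casp8 (0.34), Ripk3 (0.37), Mlkl (0.25) and Fas (0.51) were higher in each KEAP1 KO CM library, and Nlrp3 (-0.38), Aim2 (-0.40) and Casp1 (-0.30) were lower in each, with adjusted p from 0.15 to 0.648 by limma. The SE behind these values came from all 8 groups, including the libraries of NRF2 KO CM replicate 3. With the replicate number as a block, Ripk3 passed between WT CM and media (adjusted p = 0.00179), where 6.77% of genes were higher.

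In the fit of 22 libraries, without replicate 3 of NRF2 KO CM, the differences of WT CM and KEAP1 KO CM from media hardly moved but their SE were smaller. Between WT CM and media 3 of the 10 genes were then higher, where 11.7% of genes were: Pycard (0.72, adjusted p = 1.27e-06), Casp8 (0.37, adjusted p = 0.00142) and Ripk3 (0.43, adjusted p = 0.0278). Between KEAP1 KO CM and media 4 were higher, where 13% of genes were: Pycard (0.50, adjusted p = 7.84e-05), Casp8 (0.34, adjusted p = 0.00238), Ripk3 (0.38, adjusted p = 0.048) and Fas (0.52, adjusted p = 0.0274). Between NRF2 KO CM and media none passed in this fit. The log2 difference of Pycard between NRF2 KO CM and media went from -0.75 in the fit of 24 libraries to 0.02, and those of Casp8 and Ripk3 were 0.06 and 0.32 without replicate 3.

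**Figure D4:**
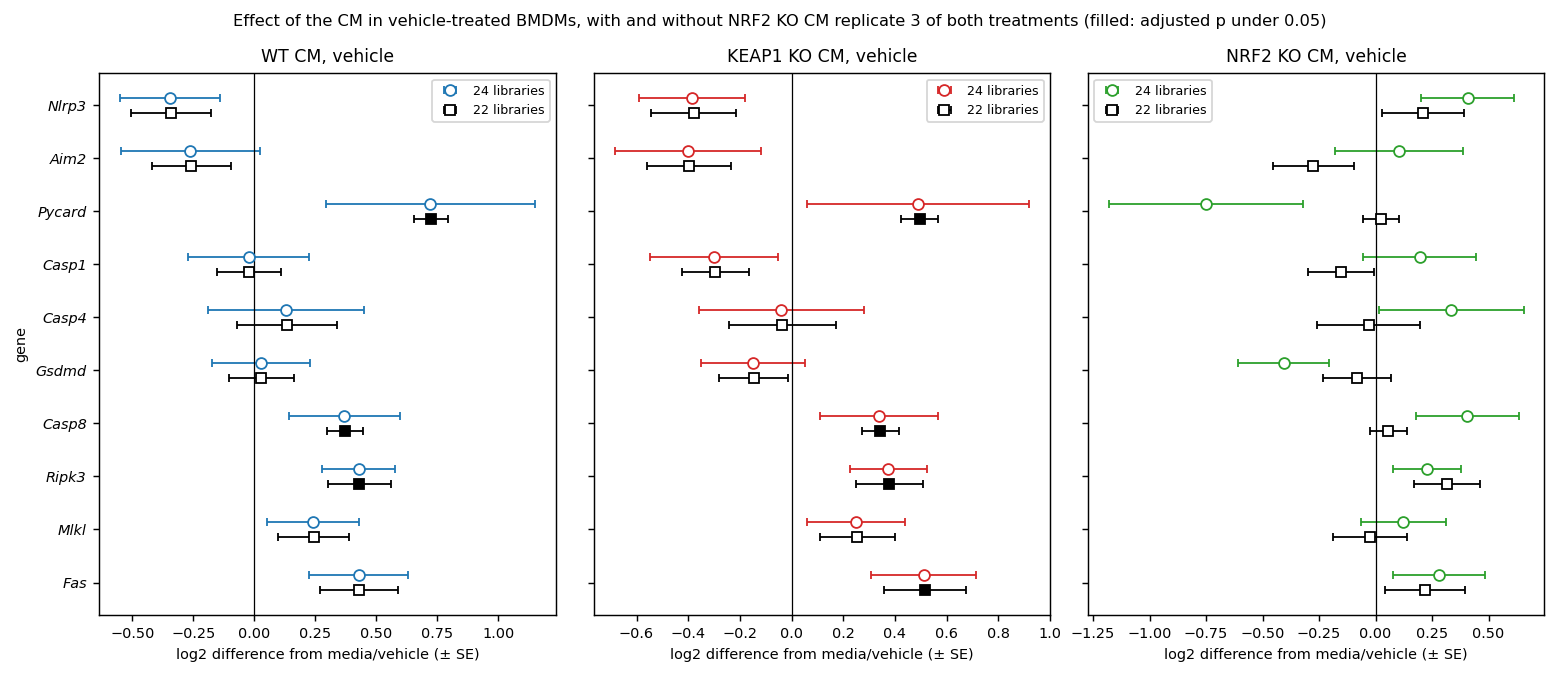
Log2 difference between each CM and media in vehicle-treated BMDMs (x axis, ± SE) for the 10 genes (y axis), in the fit of 24 libraries (circles) and of 22 libraries without NRF2 KO CM replicate 3 (squares), filled at an adjusted p under 0.05. No circle is filled, while the squares of Pycard, Casp8 and Ripk3 are filled for WT CM and KEAP1 KO CM, and that of Fas for KEAP1 KO CM.

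Relative to media/vehicle BMDMs, which the study took as the common reference, 8 of the 10 genes were higher with WT CM/CDDO-Me, where 14.6% of genes were, and 7 with KEAP1 KO CM/CDDO-Me, where 14% were. The 2 that did not pass with WT CM were Aim2 (0.65, adjusted p = 0.101) and Pycard (1.06, adjusted p = 0.0756). Casp8 passed there at 0.62 ± 0.23 (SE, adjusted p = 0.0495), but not without any 1 of the 6 libraries compared (adjusted p from 0.0603 to 0.133). With KEAP1 KO CM/CDDO-Me, Aim2 was at 0.42 (adjusted p = 0.329), Pycard at 0.82 (adjusted p = 0.186) and Casp8 at 0.51 (adjusted p = 0.119). With the replicate number as a block that Casp8 value passed (adjusted p = 0.0444), where 16.9% of genes were higher. In the fit of 22 libraries all 10 genes were higher in both groups, where 23.3% of genes were with WT CM/CDDO-Me and 22% with KEAP1 KO CM/CDDO-Me. Pycard was then at 1.05 (adjusted p = 1.68e-09) and 0.82 (adjusted p = 5.29e-08), Casp8 at 0.61 (adjusted p = 2.03e-06) and 0.50 (adjusted p = 2.33e-05), and Aim2 at 0.64 (adjusted p = 0.00365) and 0.41 (adjusted p = 0.0498). With NRF2 KO CM/CDDO-Me 2 genes were higher, where 4.8% of genes were: Ripk3 (0.74, adjusted p = 0.00252) and Fas (1.89, adjusted p = 2.88e-06). With the block 4 genes passed, Mlkl (adjusted p = 0.00253) and Casp4 (adjusted p = 0.0218) being the others, where 7.92% of genes were higher. Without replicate 3 of NRF2 KO CM the higher genes were again Ripk3 and Fas, at 0.88 (adjusted p = 0.000394) and 1.63 (adjusted p = 5.32e-06), where 7.13% of genes were higher. Aim2 was then lower, at -0.63 (adjusted p = 0.026), where 7.37% of genes were. All 3 comparisons use the same media/vehicle libraries.

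Other genes of these pathways were grouped in 4 lists. Of all genes tested, 14.5% rose with CDDO-Me in WT CM, 14.5% in KEAP1 KO CM, 3.23% in media and 4.87% in NRF2 KO CM. Of the genes called in either direction, 51.8%, 50.2%, 53.6% and 50.6% were higher in the same order, so nearly as many fell as rose. The counts in each list are to be read beside these shares. Of 17 genes of necroptosis and the TNF death complex, all tested, 8 rose and 0 fell with CDDO-Me in WT CM, 10 rose and 0 fell in KEAP1 KO CM, and 1, Tnfrsf1b, named after its values were seen, rose in media (1.13) and in NRF2 KO CM (1.40). The median over the list was 0.60 in WT CM and 0.83 in KEAP1 KO CM, where that over all genes was -0.01 and -0.02. Zbp1, the sensor of Z-form nucleic acids that recruits RIPK3, was at 14.2 to 31.1 TPM with WT CM/vehicle and 311 to 388 TPM with WT CM/CDDO-Me. In media it was at 5.04 to 7.28 TPM with vehicle and 4.32 to 7.34 TPM with the drug. It thus rose by 4.12 in WT CM (adjusted p = 3.07e-10) and by 4.33 in KEAP1 KO CM (adjusted p = 1.46e-10), against -0.15 in media (adjusted p = 0.945). Zbp1 was also higher with WT CM than with media under vehicle, by 1.63 (adjusted p = 0.000445).

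The cytokine gene Tnf went the other way with the CM: it fell with WT CM against media under vehicle, with a log2 difference of -1.499 (adjusted p = 0.000505), and rose with CDDO-Me by 3.15 in WT CM (adjusted p = 6.16e-09) and 3.57 in KEAP1 KO CM (adjusted p = 9.36e-10). Its receptor gene Tnfrsf1a rose with the drug by 1.65 and 1.68. Rnf31 and Sharpin, which encode parts of the linear ubiquitin ligase that restrains death at the TNF receptor, rose by 1.39 and 0.93 in WT CM and by 1.47 and 1.05 in KEAP1 KO CM. Tlr3, a sensor of double-stranded RNA, rose by 1.00 and 0.91. Birc3 and Tnfaip3, both restraints on TNF-driven death, passed in KEAP1 KO CM (1.30 and 0.87) and were at 0.72 and 0.37 in WT CM (adjusted p = 0.108 and 0.373). The list thus holds genes that promote and genes that restrain death, and both kinds rose.

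Of 16 other sensors and adaptors of inflammasomes 13 were tested. With CDDO-Me 4 rose and 1 fell in WT CM and 4 rose and 1 fell in KEAP1 KO CM, where 14.5% of all genes rose in each. In media 2 rose, where 3.23% of all genes did, and in NRF2 KO CM 3 rose, where 4.87% did. The median was 0.14 in WT CM and 0.28 in KEAP1 KO CM. Panx1, which encodes a large-pore membrane channel, rose in all 4 media, by 2.55 in WT CM, 2.99 in KEAP1 KO CM, 2.87 in NRF2 KO CM and 2.75 in media. Nlrp1b, a sensor of pathogen proteases, also rose in all 4, by 1.84, 1.91, 1.01 and 0.67 in the same order. Nlrc4, which assembles with NAIP proteins, rose by 1.16 in WT CM and 1.29 in KEAP1 KO CM, and Naip2 by 0.78 and 0.91. The gene that fell was Nlrp10, with differences of -1.01 and -1.21. Nlrp1b and Naip2 have near-identical copies, so their values are uncertain.

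Of 14 substrates, pore genes and related receptors 9 were tested. With CDDO-Me 4 rose and 2 fell in WT CM and 6 rose and 2 fell in KEAP1 KO CM, where 14.5% of all genes rose in each. In media 0 rose and 1 fell, where 3.23% of all genes rose, and in NRF2 KO CM 4 rose and 0 fell, where 4.87% rose. The median was 1.01 in WT CM and 0.91 in KEAP1 KO CM. Il18, a substrate of caspase-1, rose by 1.01 in WT CM (adjusted p = 0.00282) and 0.91 in KEAP1 KO CM (adjusted p = 0.00587), and Il18bp, the secreted inhibitor of interleukin-18, rose by 4.32 (adjusted p = 4.09e-10) and 4.97 (adjusted p = 5.6e-11). Il1b, another substrate, varied widely between libraries and was at 0.248 to 1.61 TPM with WT CM/vehicle, 2.31 to 12.5 TPM with WT CM/CDDO-Me and 13.8 to 129.9 TPM with KEAP1 KO CM/CDDO-Me. It passed in KEAP1 KO CM at 4.33 (adjusted p = 5.3e-05) but not in WT CM at 1.85 (adjusted p = 0.051). In NRF2 KO CM the difference of Il1b was 2.39, the largest of the list there. Ninj1, which encodes the protein that ruptures the membrane after pore formation, rose by 1.11 and 1.62, and the caspase gene Casp12 by 1.78 and 1.83. Il1a fell in media (-0.89), WT CM (-0.78) and KEAP1 KO CM (-0.52), and the receptor gene Il1r1 fell in WT CM (-1.01) and KEAP1 KO CM (-1.43). Gsdme, a second gasdermin, passed in KEAP1 KO CM (0.52) and was at 0.20 in WT CM (adjusted p = 0.438).

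Of 18 genes of extrinsic apoptosis 17 were tested. With CDDO-Me 5 rose and 2 fell in WT CM and 6 rose and 2 fell in KEAP1 KO CM, where 14.5% of all genes rose in each and nearly as many fell. In each of media and NRF2 KO CM 0 rose and 2 fell, where 3.23% and 4.87% of all genes rose. The median was 0.20 in WT CM and 0.35 in KEAP1 KO CM. The ligand gene Tnfsf10 (TRAIL) rose by 3.70 in WT CM (adjusted p = 2.14e-11) and 3.91 in KEAP1 KO CM (adjusted p = 9.13e-12), against -0.11 in media (adjusted p = 0.944). Bid, the substrate that links caspase-8 to mitochondria, rose by 1.40 and 1.54. The caspase gene Casp6 fell, with differences of -0.93 and -0.95. Bak1, a pore-forming gene of mitochondrial apoptosis, rose by 0.62 and 0.58, and Cflar, whose product holds caspase-8 in check, passed in KEAP1 KO CM (0.43) and was at 0.23 in WT CM (adjusted p = 0.243). The survival gene Bcl2a1b fell in all 4 media, by 1.92 on the log2 scale in media and by 2.22 in NRF2 KO CM, but it too has near-identical copies. Fasl, the ligand of FAS, did not pass the filter and was not tested.

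**Figure D5:**
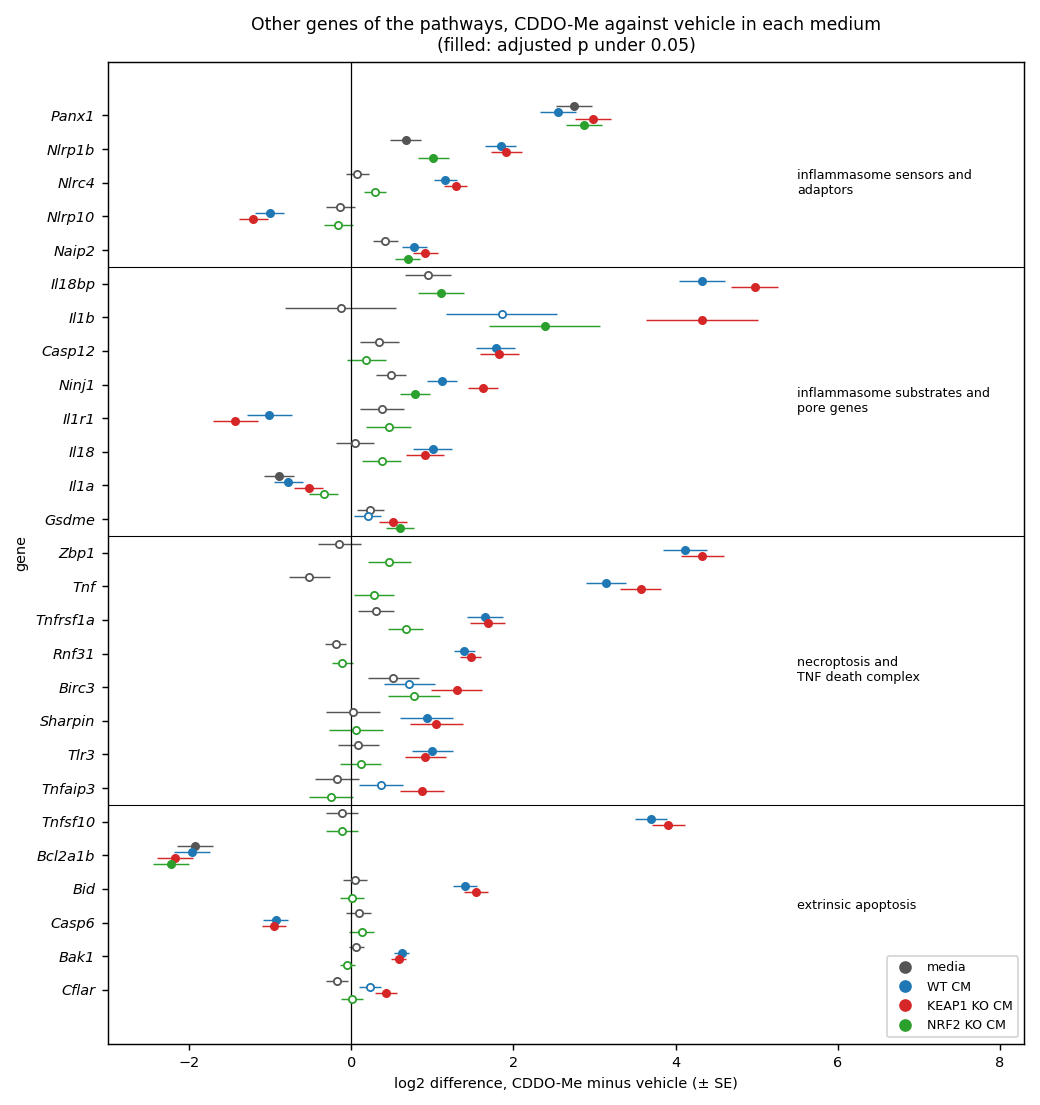
Log2 difference between CDDO-Me and vehicle (x axis, ± SE, 3 libraries against 3) in the 4 media for the related genes named in the text by rule (y axis), grouped by list, with filled points at an adjusted p under 0.05 in limma. Zbp1, Tnf, Tnfsf10 and Il18bp lie above 3 in WT CM and KEAP1 KO CM and under 1.2 in media and NRF2 KO CM, while Panx1 is above 2.5 and Bcl2a1b under -1.9 in all 4 media.

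Markers of other cell types moved with the same groups in part. Of 6 dendritic cell markers 3 were tested and 2 of these, Clec9a and Xcr1, were higher with CDDO-Me in WT CM and in KEAP1 KO CM. Their list summed to 100.3 to 127 TPM in WT CM/CDDO-Me and to 47.0 to 86.2 TPM in KEAP1 KO CM/CDDO-Me, and to 2.13 TPM or less in the other 18 libraries, with Clec9a alone at a mean of 105 TPM in WT CM/CDDO-Me and at 60.3 TPM in KEAP1 KO CM/CDDO-Me. The dendritic cell markers Flt3, Ccr7 and Siglech were under 1 TPM in all 24 libraries. The 8 fibroblast markers summed to 556 to 1149 TPM in WT CM/vehicle and to 209 to 596 TPM in WT CM/CDDO-Me, and to 784 to 1499 TPM and 166 to 797 TPM in the same groups of KEAP1 KO CM. By limma 1 of the 8 was lower with the drug in WT CM, Pdgfra (-1.21), and 2 in KEAP1 KO CM, Pdgfra (-1.48) and Postn (-1.68). The others were negative in both CM but did not pass, Col1a1 among them (adjusted p = 0.399 and 0.277). The 8 neutrophil markers summed to 11.7 to 38.5 TPM in WT CM/vehicle and 33.5 to 60.2 TPM in WT CM/CDDO-Me, and to 16.6 to 25.8 TPM and 65.7 to 76.2 TPM in KEAP1 KO CM, with 32.8 to 52.0 TPM in media/CDDO-Me. Within that list 5 markers were tested, and only S100a8 was called, with a rise of 2.19 in WT CM, 2.54 in KEAP1 KO CM and 1.79 in NRF2 KO CM. The 4 not called were S100a9, Camp, Ngp and Ltf, at 0.30, 0.12, -0.08 and -0.52 in WT CM. Of 4 epithelial markers 1, Cdh1, was tested. It was higher with WT CM and KEAP1 KO CM than with media under vehicle, by 2.12 and 2.39, and was lower with CDDO-Me in both, with differences of -2.16 (adjusted p = 3.82e-11) and -2.40 (adjusted p = 7.44e-12), against 0.06 in media and 0.07 in NRF2 KO CM. The epithelial list summed to 3.11 to 4.29 TPM in WT CM/vehicle, 4.69 to 7.23 TPM in KEAP1 KO CM/vehicle and 1.83 TPM or less in the other 18 libraries. Over the 24 libraries Cdh1 reached 5.19 TPM, while Krt18, Krt8 and Epcam had medians of 0.09, 0.007 and 0 TPM and maxima of 1.70, 1.01 and 0.27 TPM. Mcpt8, the mast cell and basophil marker tested, was lower with the drug in KEAP1 KO CM (-1.13) and in NRF2 KO CM (-1.39). The 8 macrophage markers summed to 18069 to 19256 TPM in WT CM/vehicle and 15681 to 19559 TPM in WT CM/CDDO-Me, and to 17775 to 21305 TPM and 18034 to 19422 TPM in KEAP1 KO CM, with Lyz2 alone at 12084 TPM or more in every library. Single macrophage markers moved with the same groups. Fcgr1 rose by 3.35 and 3.50 with the drug in WT CM and KEAP1 KO CM and fell in media (-1.17) and NRF2 KO CM (-1.10), Mertk rose by 0.93 and 0.90 in the same 2 CM, and Cd68 fell there (-1.41 and -1.31) and in NRF2 KO CM (-0.61). The part of these markers in the values of the 10 genes was not tested.

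Across the 24 libraries, which share the 8 groups and so are not independent points, the genes nearest to each of the 10 by Pearson's r of log2 values were as follows, as a description. Samhd1 was nearest to Mlkl (0.996), Snx10 to Casp1 (0.984), Fxyd5 to Casp4 (0.982) and Uba7 to Gsdmd (0.975). Slc25a37 was nearest to Nlrp3 (0.972), Arid4a to Aim2 (0.951), Pla2g4a to Ripk3 (0.953) and Piwil2 to Fas (0.942). Btk was nearest to Casp8 (0.962) and Cox6a1 to Pycard (0.982), both of which had their most extreme value in replicate 3 of NRF2 KO CM. Among the 10 genes, Casp1 and Mlkl were the closest pair (0.946), followed by Casp1 with Casp4 (0.936) and with Nlrp3 (0.932), while Pycard was at -0.155 with Casp8 and -0.03 with Aim2.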

How the data were processed

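Groups and replicate numbers of the 24 BMDM libraries came from the labels. From poly-A RNA sequencing the authors estimated transcript abundance with Kallisto on GRCm39, and they deposited TPM for 35770 gene names, in a table named as counts. A line without a gene name, 0.0199% to 0.0635% of a library, was left out. The 10 genes and all lists were chosen with earlier results of these data known.

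Libraries were scaled with unweighted TMM factors (30% trimmed on M and 5% on A) and log2(scaled TPM + 1) was computed. The genes above 1 TPM in 3 or more libraries were fitted with limma (eBayes with a trend, 8 groups, 16 residual degrees of freedom, two-sided, Benjamini-Hochberg over 13661 genes). A test on counts, set out for the case of count data, was not used, since the values are TPM. Overlap between groups was read from TPM as deposited. The SE and intervals come from this fit. The scripts were tested on simulated data.

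Named were the 10 genes in every comparison, up to 8 genes per related list with the largest difference among those called for CDDO-Me in WT CM or KEAP1 KO CM, and the genes with the highest r to each of the 10. Some genes and 1 motif that these choices named are not reported here. Replicate numbers were treated as pairing where every same-numbered pair of libraries deviated together from its group means with r over 0.1. This held for 7 of 12 comparisons: WT CM against media, KEAP1 KO CM against WT CM with vehicle and with CDDO-Me, CDDO-Me in media and in NRF2 KO CM, and KEAP1 KO CM/CDDO-Me and NRF2 KO CM/CDDO-Me against media/vehicle. Alternatives were another scaling, no scaling, other filters and pseudocounts, no trend, array weights, a replicate block, the compared groups alone, and libraries left out. Gene positions are from GENCODE on GRCm39. The software was R 4.3.3, limma 3.58.1, Python 3.11.15 and matplotlib 3.10.9.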

Additional observations from a re-analysis of the deposited data

Results flagged for a closer look

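For 16 values the effect of CDDO-Me on a gene differed between 2 media by the direct test of that difference, with adjusted p from limma over 13661 genes. The explanations for these differences were not tested. In WT CM against media they were Nlrp3 (1.79), Aim2 (1.21), Casp1 (1.29, adjusted p = 0.015), Casp4 (1.94), Gsdmd (1.28, adjusted p = 0.00338) and Mlkl (1.69). In KEAP1 KO CM against media they were Nlrp3 (1.96, adjusted p = 6.44e-05), Casp1 (1.57, adjusted p = 0.00352), Casp4 (2.50), Gsdmd (1.47, adjusted p = 0.00102), Ripk3 (0.82, adjusted p = 0.0102) and Mlkl (1.61, adjusted p = 0.000218). In WT CM against NRF2 KO CM they were Nlrp3 (1.82), Aim2 (1.33), Casp1 (1.35) and Mlkl (1.92). All 16 were larger in the CM named first. The comparisons share libraries, so the 3 sets of values are not independent of each other.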

How the results depend on the processing

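In WT CM and in KEAP1 KO CM, between 7 and 8 of the 10 genes were higher with CDDO-Me whichever library of the compared groups was left out. The share of all genes called in the fits without single libraries is not given here, so counts from these fits are descriptions only. Under the alternatives below, other counts of genes called moved by over 1.5 times, and the cause was not tested. With array weights 5 genes passed for WT CM against media under vehicle (4 higher, and Aim2 lower, where 16.8% of all genes were higher and 13.3% lower), 8 for KEAP1 KO CM against media (5 higher, and Nlrp3, Aim2 and Casp1 lower, where 20.4% and 16.3% were), 4 for CDDO-Me in media (all higher, where 12.3% were), 4 for CDDO-Me in NRF2 KO CM (3 higher, and Aim2 lower, where 9.9% and 10.5% were), 4 for NRF2 KO CM/CDDO-Me against media/vehicle (3 higher, and Aim2 lower, where 13.2% and 13.8% were) and 9 for the drug effect in WT CM against NRF2 KO CM (all higher, where 16.8% were). With the compared groups fitted alone the counts in that order were 4 (all higher, where 9.66% were), 4 (3 higher, where 10.8% were, and Casp1 lower, where 7.05% were), 4 (3 higher, where 6.28% were, and Aim2 lower, where 6.48% were) and 0 (where 0.825% were higher), with no such shift for the fifth, and 2 for the last (both higher, where 5.13% were). Without replicate 3 of NRF2 KO CM 3 genes passed for WT CM against media, 4 for KEAP1 KO CM against media and 7 for the last. All were higher, where 11.7%, 13% and 11.2% of all genes were. With the replicate block 1 gene (Ripk3) passed for WT CM against media, where 6.77% of all genes were higher. For KEAP1 KO CM against media 1 (Ripk3) passed, where 7.36% were higher, but there the numbers did not meet the rule for pairs (lowest r 0.0968). For NRF2 KO CM/CDDO-Me against media/vehicle 4 passed, where 7.92% were higher. Apart from the blocked values given with the results, the block changed no call of the 10 genes between 2 groups whose numbers paired. For the difference between drug effects, Ripk3 in WT CM against media (adjusted p = 0.00108) and against NRF2 KO CM (0.00491), Aim2 in KEAP1 KO CM against media (0.00454) and Casp4 in WT CM against NRF2 KO CM (0.00208) passed by limma with the block and not without it. With the block 10.7% of all genes had a larger effect in WT CM than in media. For KEAP1 KO CM against media it was 10.6%, and for WT CM against NRF2 KO CM 9.83%. For CDDO-Me against vehicle in WT CM and in KEAP1 KO CM, which these differences include, the numbers did not meet the rule for pairs (lowest r 0.0622 and 0.0941). Without a filter 1 gene passed for CDDO-Me in media and 1 in NRF2 KO CM, where the share of all genes is not given here. Without scaling 1 passed in NRF2 KO CM, where 1343 of all genes were called, 45.0% of them higher. Without scaling the median of all genes for CDDO-Me was at -0.12 in WT CM and -0.17 in KEAP1 KO CM. Of all genes 4040 and 4513 were then called, and 39.1% and 34.6% of them were higher, against 51.8% and 50.2% with scaling. Of the 10 genes 8 and 7 were called without scaling, all higher. Leaving out single libraries gave 1 to 2 genes for CDDO-Me in media and 1 to 3 in NRF2 KO CM, again as a description only. For the drug effect in WT CM against NRF2 KO CM, in which neither gene was called, Pycard then ranged from -0.22 to 1.04 and was negative without replicate 1 (-0.16) or 2 (-0.05) of NRF2 KO CM/vehicle or replicate 3 of NRF2 KO CM/CDDO-Me, and Casp8 ranged from -0.00446 (without replicate 3 of NRF2 KO CM/vehicle) to 0.66. The depth is unknown, so the limits it sets could not be computed.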
